A study of Arabidopsis thaliana with 8 samples.

Results

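Jasmonate signalling and response genes of Arabidopsis thaliana leaves are described here: the transcription factor gene MYC2, the repressor genes JAZ1, JAZ2, JAZ3, JAZ5, JAZ9 and JAZ10, and the response genes VSP1, VSP2 and TAT3. They were chosen by locus identifier as known genes of the pathway, with earlier results of these data known. Shares over all loci given beside them are therefore a description and not a test. They make up 10 of the 22546 loci listed in at least 1 of the deposited count files. All 10 were listed in all 8 files, and all 10 passed the filter on low counts in every contrast. The samples were leaf messenger RNA of wild type (wt) and of dcl1, which carries a mutation in the gene for DICER-LIKE 1, by which plants process microRNA precursors. Each genotype had 2 RNA samples, and each RNA sample was made into 2 libraries, 1 with high definition (HD) adapters, which carry random bases at the ligated end, and 1 with standard Illumina (IL) adapters. That gave 4 groups of 2 libraries: wt HD, wt IL, dcl1 HD and dcl1 IL. The plants of all 4 groups were untreated and grew at 25 °C by day and 18 °C by night with 16 h of light. The labels give neither the dcl1 allele, nor the accession line, nor the age of the leaves, and do not say whether replicates were separate plants, so p-values measure only how far these samples spread, in part perhaps for technical reasons.

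Jasmonates are lipid-derived hormones made after wounding, insect attack and infection by necrotrophs. At low hormone levels JAZ proteins bind MYC2 and its relatives and, through the adaptor NINJA and the co-repressor TOPLESS, hold their targets silent. Jasmonoyl-isoleucine joins a JAZ protein to the F-box protein COI1, the JAZ protein is degraded, and MYC2, a basic helix-loop-helix factor that binds the G-box CACGTG, switches on its targets. Most JAZ genes are themselves such targets, which makes a feedback loop, and in leaves the VSP genes are classical readouts of the MYC branch.

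The libraries held between 15772958 and 45929383 counts. Levels below are normalised read counts on the counts-per-million (CPM) scale. Messenger RNA of DCL1 itself was at 20.2 to 21.3 CPM in wt and 21.2 to 25.7 CPM in dcl1 and was not called in any genotype contrast (adjusted p between 0.701 and 0.876 by edgeR), so it does not check the genotype labels. The tissue label was checked by markers. The summed level of 6 leaf markers was 45750 to 62130 CPM in wt and 46910 to 58040 CPM in dcl1. That of 2 root markers was 1.53 to 3.16 CPM over all libraries, that of 4 flower markers was 0.100 to 1.58 CPM in wt and 0 to 0.485 CPM in dcl1, and of 3 seed markers CRU3 and OLEO1 were at 0 in every library. These are leaf RNAs with many cell types, in which fewer cells of a type and less RNA per cell cannot be told apart.

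The 10 genes did not move as a block. On the summed counts of the HD and the IL library of each RNA sample, TAT3, JAZ2 and JAZ9 fell and VSP1 rose in dcl1, while MYC2, JAZ1, JAZ3, JAZ5, JAZ10 and VSP2 did not pass the test. TAT3 fell by 4.004 on the log2 scale, to a mean of 1.69 from 27.5 CPM, and VSP1 rose 2.22-fold, to 31.6 from 14.3 CPM. JAZ2 and JAZ9 had log2 fold changes of -0.73 and -0.58. The 4 genes called compare with 8.85% of all 19711 loci tested, 4.3% called higher and 4.55% called lower. The median log2 fold change of the 10 genes was -0.26, against 0.01 over all loci tested. The same 4 genes were those whose 4 dcl1 libraries lay wholly outside the range of the 4 wt libraries, VSP1 above it and JAZ2, JAZ9 and TAT3 below it. Over all loci 7.64% lay wholly above and 8.17% wholly below. These ranges come from the same counts as the test, and the 4 libraries of a genotype from 2 RNA samples, so they are no separate evidence.

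**Figure D1:**
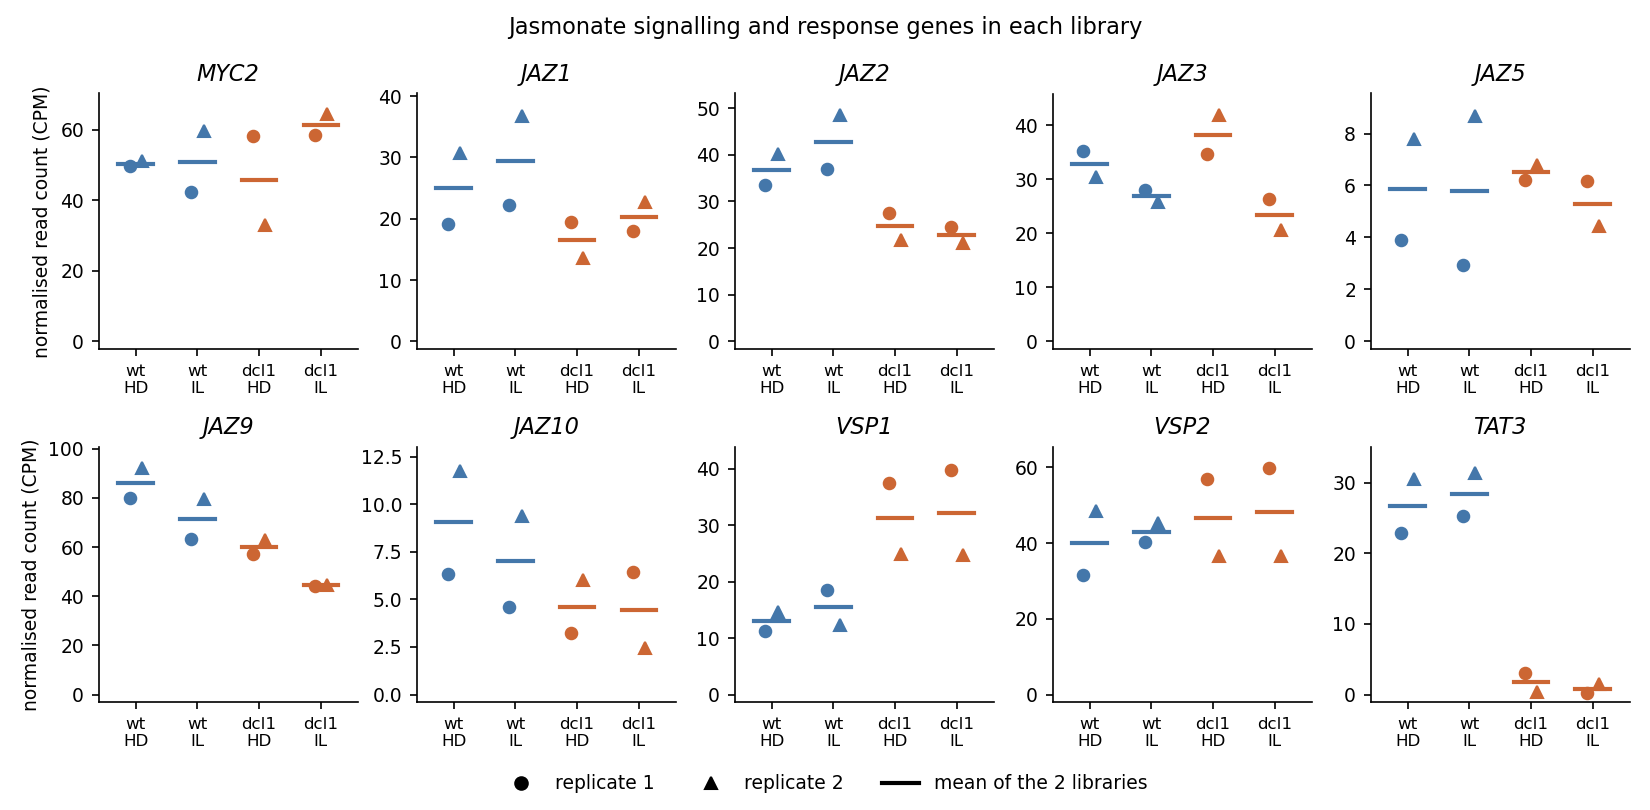
Normalised read counts (CPM, linear axes that differ between panels) of each of the 10 genes in the 8 libraries. Circles are replicate 1, triangles replicate 2 and bars the mean of the 2 libraries, in blue for wt and orange for dcl1. The dcl1 libraries of TAT3 sit between 0.159 and 3.06 CPM, all below the wt libraries at 22.9 to 31.3 CPM.

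MYC2 (AT1G32640, chr1:11798119-11801407, minus strand of TAIR10.1) is the master regulator of the set. It was at 49.7 and 51.1 CPM in the wt HD libraries, 42.4 and 59.6 CPM in wt IL, 58.1 and 33.1 CPM in dcl1 HD, and 58.4 and 64.4 CPM in dcl1 IL. The wt and dcl1 libraries overlapped, and the lowest value of all was that of dcl1 HD replicate 2. The log2 fold change, dcl1 over wt, was -0.14 (SE 0.23, adjusted p = 0.840) with HD adapters, 0.27 (SE 0.23, adjusted p = 0.656) with IL adapters and 0.15 (SE 0.16, adjusted p = 0.638) on summed counts. Without dcl1 HD replicate 2 the value with HD adapters was 0.21. The locus AT1G32630 lies on the opposite strand and covers 98.5% of the exon bases of MYC2. Whether reads were counted by strand is not given in the sources used here, so how reads of the overlap were assigned is not known. AT1G32630 had 55 to 253 counts per library, 4.98% to 13.0% of those of MYC2. With both loci added together the value on summed counts was 0.17 (adjusted p = 0.589).

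JAZ2 and JAZ9 were the repressor genes that fell. JAZ2 (AT1G74950, chr1:28148574-28150446, minus strand, TIFY10B in RefSeq) was at 33.5 and 40.2 CPM in wt HD, 37.0 and 48.5 CPM in wt IL, 27.4 and 21.8 CPM in dcl1 HD, and 24.4 and 21.2 CPM in dcl1 IL. Every dcl1 library was below every wt library. The gene fell by 0.91 (log2 scale; SE 0.22, adjusted p = 0.0187) with IL adapters. On summed counts it fell by 0.73 (SE 0.17, adjusted p = 0.0137), from 39.9 ± 6.64 to 24.1 ± 3.60 CPM (SD, n = 2 each). With HD adapters it had a log2 fold change of -0.58 (SE 0.22) and did not pass (adjusted p = 0.170).

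JAZ9 (AT1G70700, chr1:26654529-26657350, plus strand, TIFY7 in RefSeq) was at 79.9 and 92.1 CPM in wt HD and 63.5 and 79.6 CPM in wt IL. In dcl1 it was at 57.0 and 63.0 CPM with HD and 44.2 and 44.7 CPM with IL adapters. The groups did not overlap, though the highest dcl1 value and the lowest wt value were close. JAZ9 fell by 0.69 (SE 0.18, adjusted p = 0.0299) with IL adapters. On summed counts it fell by 0.58 (SE 0.15, adjusted p = 0.0238), from 78.4 ± 10.5 to 52.4 ± 1.60 CPM (SD, n = 2 each). With HD adapters its log2 fold change was -0.52 (SE 0.18, adjusted p = 0.114), which did not pass. The calls of JAZ2 and JAZ9 rest on few libraries. On summed counts that of JAZ2 ended without wt replicate 2 (-0.56, adjusted p = 0.0870) or dcl1 replicate 2 (-0.58, adjusted p = 0.0936), and that of JAZ9 without wt replicate 2 (-0.45, adjusted p = 0.133), dcl1 replicate 1 (-0.61, adjusted p = 0.0540) or dcl1 replicate 2 (-0.55, adjusted p = 0.108).

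The other repressor genes were not called. JAZ10 (AT5G13220, chr5:4218786-4221077, plus strand), whose splice forms include repressors that resist degradation, was at 6.36 and 11.8 CPM in wt HD, 4.61 and 9.41 CPM in wt IL, 3.24 and 6.01 CPM in dcl1 HD, and 6.45 and 2.42 CPM in dcl1 IL. The groups were apart with HD adapters and overlapped with IL adapters. Its log2 fold change on summed counts was -1.03 (SE 0.34, adjusted p = 0.0691), close in size to that of VSP1 but with a wider error. It was called with no filter on low counts (-1.03, adjusted p = 0.0184). Without wt replicate 1 the value was -1.43. The wt RNA samples were far apart, at 5.4 CPM in replicate 1 and 10.6 CPM in replicate 2. Those of dcl1 were at 4.2 and 3.7 CPM, so much of the fall rests on wt replicate 2. JAZ1 (AT1G19180, chr1:6621777-6623668, plus strand), a repressor that COI1 binds in the presence of the hormone, ranged from 19.2 to 36.8 CPM in wt and from 13.7 to 22.8 CPM in dcl1. Its log2 fold change on summed counts was -0.49 (SE 0.21, adjusted p = 0.165), and was -0.80 without wt replicate 1. That RNA sample, at 20.7 CPM, lay close to those of dcl1 (19.1 and 19.9 CPM). The fall of JAZ1 thus rests mostly on wt replicate 2, at 33.95 CPM.

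JAZ3 (AT3G17860, chr3:6119707-6123044, plus strand) was at 35.3 and 30.4 CPM in wt HD, 28.1 and 25.8 CPM in wt IL, 34.6 and 41.9 CPM in dcl1 HD, and 26.3 and 20.6 CPM in dcl1 IL. Its highest libraries were HD libraries in both genotypes, and the genotypes overlapped. The log2 fold change was 0.22 (SE 0.21, adjusted p = 0.694) with HD and -0.20 (SE 0.22, adjusted p = 0.749) with IL adapters. JAZ5 (AT1G17380, chr1:5955155-5957511, minus strand) had the lowest level per kilobase of the repressor genes in wt. It was at 2.94 to 8.66 CPM in wt and at 4.42 to 6.80 CPM in dcl1. All 4 dcl1 values lay within the wt range. Its log2 fold change on summed counts was -0.03 (SE 0.37, adjusted p = 0.979), and was 0.75 without wt replicate 2.

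Promoters of JAZ2 and JAZ3 are shown because they were the only ones of the 10 genes with the full G-box within 250 bases before the annotated start. They were read from the RefSeq TAIR10.1 sequence on the strand of the gene, JAZ2 at chr1:28150447-28150696 (minus strand) and JAZ3 at chr3:6119457-6119706 (plus strand), with the G-box in capitals. The first base of the G-box is at position -66 in JAZ2 and at -140 and -82 in JAZ3, counted back from the base before the start.
JAZ2: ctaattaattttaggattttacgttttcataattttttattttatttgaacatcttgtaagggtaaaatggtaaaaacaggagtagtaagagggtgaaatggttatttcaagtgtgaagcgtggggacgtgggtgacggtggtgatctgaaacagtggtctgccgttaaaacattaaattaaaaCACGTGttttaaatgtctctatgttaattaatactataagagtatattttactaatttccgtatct
JAZ3: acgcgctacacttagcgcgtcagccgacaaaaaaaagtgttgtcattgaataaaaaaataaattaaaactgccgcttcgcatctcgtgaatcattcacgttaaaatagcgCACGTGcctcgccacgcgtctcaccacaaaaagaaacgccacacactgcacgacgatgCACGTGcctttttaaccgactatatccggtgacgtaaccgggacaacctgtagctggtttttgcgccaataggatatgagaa
The repressor gene with 1 G-box here was lower in dcl1, and the one with 2 was not called. CACGTG, which reads the same on both strands, was in 2 of the 10 windows, against 6.49% of the 27443 promoters of that length. Within 1000 bases it was in 5 of the 10 genes (JAZ1, JAZ2, JAZ3, JAZ5 and JAZ9), against 14.8% of all. The looser CANNTG, which includes the G-box, was in 6 of 10 windows of 250 bases, against 55.3% of all promoters. JAZ9, which fell, has no G-box in the shorter window.

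TAT3 (AT2G24850, chr2:10582074-10585216, minus strand) codes for a tyrosine aminotransferase and is a common marker of the jasmonate response. It was at 22.9 and 30.4 CPM in wt HD and at 25.3 and 31.3 CPM in wt IL. In dcl1 it was at 3.06 and 0.425 CPM with HD adapters and at 0.159 and 1.50 CPM with IL adapters. The raw counts were 457, 1220, 561 and 1339 in wt against 142, 7, 3 and 49 in dcl1. No other gene of the 10 changed as much, and in the dcl1 libraries the spread was itself wide, with the highest library of each adapter at several times the other. TAT3 fell by 3.79 (SE 0.57, adjusted p = 0.000223) with HD adapters. With IL adapters it fell by 4.94 (SE 0.62, adjusted p = 2.46e-05). On summed counts it fell by 4.004 (SE 0.29, adjusted p = 1.72e-07), from 27.5 ± 4.88 to 1.69 ± 0.764 CPM (SD, n = 2 each). The HD and IL libraries of a dcl1 RNA sample differed too, at 142 and 3 counts in replicate 1 and 7 and 49 in replicate 2. The SD and SE of the sums do not show this spread. The size within an adapter depended on single dcl1 libraries. It was -5.95 without dcl1 HD replicate 1 and -3.12 without dcl1 HD replicate 2, and -4.23 without dcl1 IL replicate 1 and -7.44 without dcl1 IL replicate 2. The call held without any 1 library or RNA sample, and with DESeq2.

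The promoter of TAT3 is shown as that of the gene with the largest change (chr2:10585217-10585466, minus strand, RefSeq TAIR10.1). It holds no full G-box, and the capitals mark its single match to CANNTG, at position -111.
TAT3: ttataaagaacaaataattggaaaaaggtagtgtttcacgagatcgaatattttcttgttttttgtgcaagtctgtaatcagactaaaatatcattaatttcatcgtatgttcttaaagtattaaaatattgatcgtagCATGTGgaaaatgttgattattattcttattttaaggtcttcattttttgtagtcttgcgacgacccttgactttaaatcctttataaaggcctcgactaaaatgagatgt

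VSP1 and VSP2, neighbouring genes for vegetative storage proteins with acid phosphatase activity, differed in outcome. VSP1 (AT5G24780, chr5:8507590-8509201, minus strand) was at 11.3 and 14.6 CPM in wt HD, 18.5 and 12.4 CPM in wt IL, 37.5 and 24.8 CPM in dcl1 HD, and 39.7 and 24.6 CPM in dcl1 IL. All 4 dcl1 libraries were above all 4 wt libraries, and within dcl1 replicate 1 was the higher with both adapters. VSP1 rose by 1.27 (SE 0.29, adjusted p = 0.0106) with HD, by 1.06 (SE 0.29, adjusted p = 0.0347) with IL adapters and by 1.15 (SE 0.20, adjusted p = 0.00142) on summed counts, from 14.3 ± 1.11 to 31.6 ± 9.50 CPM (SD, n = 2 each). On summed counts the call held without any 1 of the 4 RNA samples, at 0.81 to 1.43. Within adapters it ended without wt HD replicate 1 (1.12, adjusted p = 0.0701), dcl1 HD replicate 1 (0.94, adjusted p = 0.116), wt IL replicate 2 (0.79, adjusted p = 0.338) or dcl1 IL replicate 1 (0.68, adjusted p = 0.379).

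VSP2 (AT5G24770, chr5:8500468-8502224, minus strand), which is known to deter insects, was at 31.5 and 48.5 CPM in wt HD, 40.2 and 45.4 CPM in wt IL, 56.9 and 36.5 CPM in dcl1 HD, and 59.9 and 36.6 CPM in dcl1 IL. The genotypes overlapped: dcl1 replicate 1 was above every wt library and dcl1 replicate 2 below most of them. The log2 fold change on summed counts was 0.19 (SE 0.20, adjusted p = 0.644), and was -0.17 without dcl1 replicate 1. VSP2 gave more counts than VSP1 in every library. The ratio of VSP1 to VSP2 counts was 0.360 and 0.301 in wt HD, 0.461 and 0.272 in wt IL, 0.659 and 0.681 in dcl1 HD, and 0.663 and 0.673 in dcl1 IL. The dcl1 ratios were all higher and much closer to each other than the wt ratios, and both dcl1 RNA samples had nearly the same ratio (0.660 and 0.676) although their VSP levels differed. Over the RNA samples the ratio was 1.93-fold higher in dcl1 (two-sided exact permutation p = 0.333, the smallest p that 2 against 2 samples allow). This ratio was looked at after the values were seen.

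**Figure D2:**
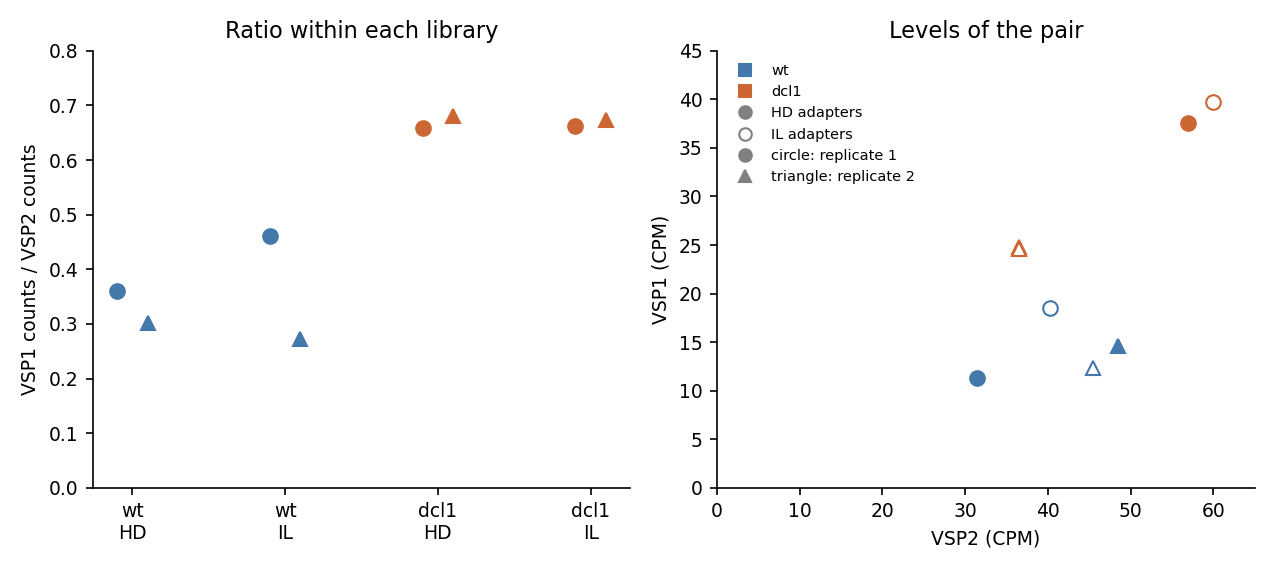
Left, VSP1 counts divided by VSP2 counts in each library (linear axis from 0). Right, VSP1 against VSP2 level in CPM, with filled symbols for HD and open symbols for IL libraries, circles for replicate 1 and triangles for replicate 2. The 4 dcl1 ratios lie at 0.659 to 0.681, above the wt ratios at 0.272 to 0.461.

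The pair lie 5365 bases apart with AT5G24775 between them, and their coding sequences are 90.0% identical (717 of 797 aligned columns). Only 5 words of 50 bases are shared between their transcripts, 0.420% of those of VSP1 and 0.353% of those of VSP2. How reads with several matches were counted is not given in the sources used here. With the pair added together as 1 locus no contrast was called (0.56, adjusted p = 0.230 with HD, 0.46, adjusted p = 0.347 with IL, and 0.50, adjusted p = 0.112 on summed counts). Their promoters are shown to compare the neighbours. An end-to-end alignment of the 250 bases before the start gave 57.4% identity over 230 aligned columns. It did not pair the shared run marked below, which lies at different distances from the 2 starts. The value therefore does not measure how far the promoters differ. VSP1 is at chr5:8509202-8509451 and VSP2 at chr5:8502225-8502474, both on the minus strand (RefSeq TAIR10.1). The capitals mark the longest run that the windows share, 23 bases, which starts at position -142 in VSP1 and at -76 in VSP2.
VSP1: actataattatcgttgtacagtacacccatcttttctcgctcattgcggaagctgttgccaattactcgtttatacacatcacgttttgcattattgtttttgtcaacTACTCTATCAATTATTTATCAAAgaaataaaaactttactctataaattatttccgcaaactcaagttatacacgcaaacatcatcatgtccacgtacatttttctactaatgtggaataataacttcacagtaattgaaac
VSP2: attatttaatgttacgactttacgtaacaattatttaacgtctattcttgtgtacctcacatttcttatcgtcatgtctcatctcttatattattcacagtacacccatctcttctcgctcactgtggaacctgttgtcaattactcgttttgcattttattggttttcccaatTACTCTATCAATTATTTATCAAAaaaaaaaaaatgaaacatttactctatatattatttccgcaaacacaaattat
Neither window holds CACGTG or CANNTG.

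With HD adapters fewer genes passed than on summed counts, and with IL adapters as many. With HD adapters VSP1 rose and TAT3 fell, 2 of the 10 genes, against 4.33% of 19521 loci tested (2.07% higher and 2.26% lower). With IL adapters VSP1 rose and JAZ2, JAZ9 and TAT3 fell, 4 of 10, against 4.23% of loci (1.87% higher and 2.36% lower). The dcl1 HD libraries lay wholly above the wt HD libraries for 1 gene and wholly below for 4 (JAZ2, JAZ9, JAZ10 and TAT3), where over all loci 22.5% and 23.3% did. With IL adapters the numbers were 1 and 3, where over all loci 22.9% and 24.5% did. The median log2 fold change of the 10 genes was -0.33 with HD and -0.37 with IL adapters, against -0.01 and 0.00 over all loci. The HD and IL libraries come from the same RNA samples, so these contrasts are not independent of each other. The fit within adapters nevertheless estimated the spread from all 8 libraries as if they were independent. Without wt HD replicate 1 or dcl1 HD replicate 1 the count with HD adapters was 1. With IL adapters it was 1 without wt IL replicate 2 and 2 without dcl1 IL replicate 1 or 2.

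**Figure D3:**
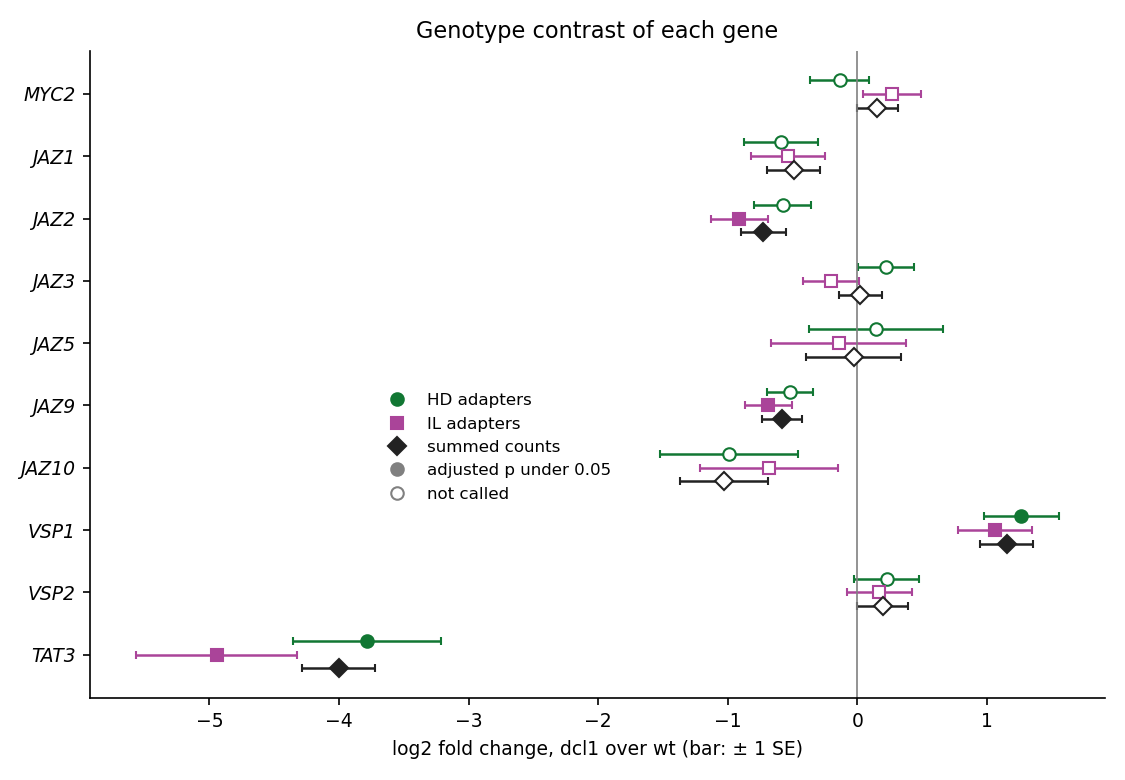
Log2 fold change, dcl1 over wt, of each gene with HD adapters (circles), IL adapters (squares) and on summed counts (diamonds), with bars of 1 SE either way. Filled symbols have an adjusted p under 0.05. TAT3 lies between -4.94 and -3.79, VSP1 between 1.06 and 1.27, and the other genes within about 1 unit of 0.

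No gene of the 10 had a genotype contrast that differed between adapters by edgeR's interaction test (0 called, against 0.0256% of loci; 0 at an unadjusted p under 0.05; 0 by DESeq2). The largest estimate was that of TAT3, 1.16 higher with HD than with IL adapters (SE 0.78, unadjusted p = 0.152, adjusted p = 0.9999). The adapter itself gave no call either (0 called by edgeR, against 0.492% of loci, and 0 by DESeq2), though 2 genes had an unadjusted p under 0.05. JAZ3 was higher with HD adapters by 0.50 (SE 0.15, unadjusted p = 0.00399, adjusted p = 0.270), and JAZ9 by 0.35 (SE 0.12, unadjusted p = 0.00931, adjusted p = 0.347). Both were higher with HD adapters in 4 of 4 pairs of libraries from the same RNA sample. The fit above leaves this pairing out. With the RNA sample as a block, JAZ3 (0.50, SE 0.15, unadjusted p = 0.00244, adjusted p = 0.115) and JAZ9 (0.35, SE 0.10, unadjusted p = 0.00219, adjusted p = 0.109) still did not pass, while over all loci 232 were called in place of 96.

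Per kilobase of exon the order of levels changed with genotype. In wt the medians over 4 libraries were 43.0 CPM per kb for JAZ9, 28.2 for VSP2, 28.1 for JAZ2, 15.3 for MYC2, 14.7 for JAZ1, 11.6 for TAT3, 10.6 for JAZ3, 10.1 for VSP1, 3.56 for JAZ10 and 2.61 for JAZ5. JAZ9 led, and its wt libraries were all above those of VSP2, whereas VSP2 and JAZ2 overlapped, as did the run from MYC2 to VSP1 from each gene to the next. In dcl1 the order was VSP2 at 30.8 CPM per kb, JAZ9 at 27.4, VSP1 at 23.3, MYC2 at 17.7, JAZ2 at 16.8, JAZ3 at 11.1, JAZ1 at 10.4, JAZ5 at 2.77, JAZ10 at 2.09 and TAT3 at 0.402. VSP1 took the eighth place in wt and the third in dcl1, and TAT3 went from the sixth place to the last. In dcl1 the genes from VSP2 to JAZ2 each overlapped the next, as did the last 3.

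The wt replicates of these genes differed in 1 direction more often than most loci did. Of the 10 genes 8 were higher in wt replicate 2 than in replicate 1 with both adapters, all but JAZ3 and VSP1, against 27.9% of all loci. JAZ5 differed most, at 3.91 and 7.79 CPM with HD and 2.94 and 8.66 CPM with IL adapters. In dcl1, 1 gene (JAZ9) was higher in replicate 2 with both adapters, against 25.5% of all loci, and 3 (JAZ2, VSP1 and VSP2) were lower. On summed counts 6 of the 10 genes were called without wt replicate 1, JAZ1 and JAZ10 being added. Without wt replicate 2 there were 2, without dcl1 replicate 1 there were 3, and without dcl1 replicate 2 there were 2. VSP1 and TAT3 were among them each time.

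**Figure D4:**
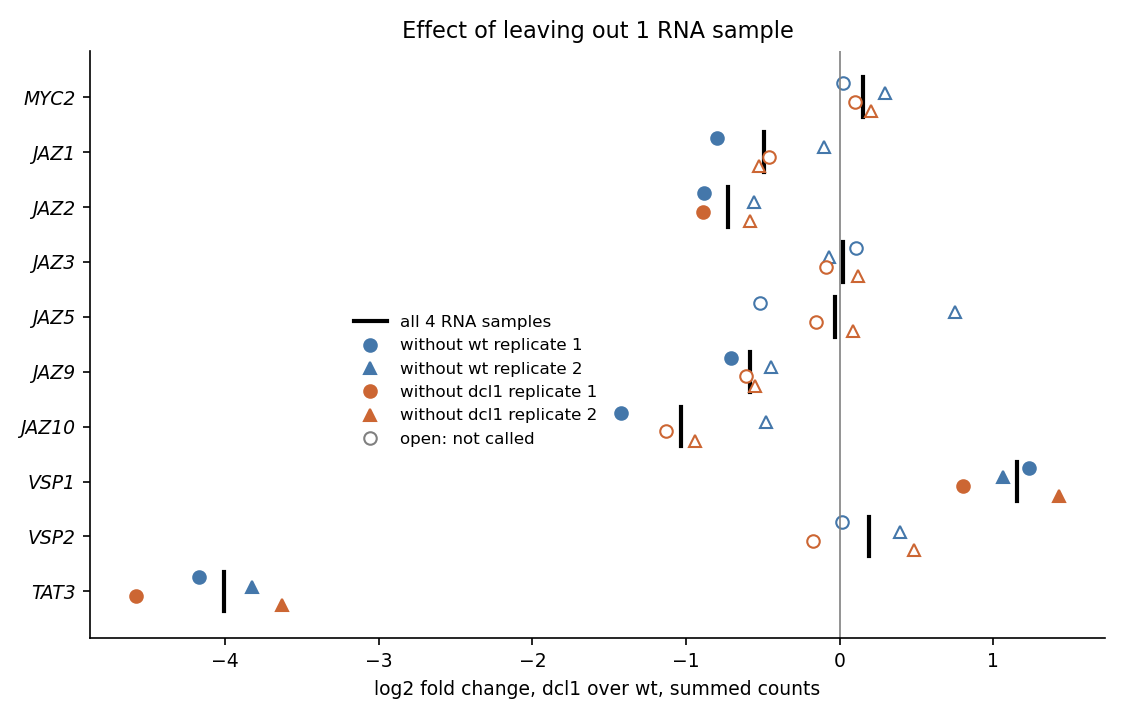
Log2 fold change on summed counts with all 4 RNA samples (black bars) and with each RNA sample left out in turn (symbols; filled where the adjusted p is under 0.05). VSP1 and TAT3 are filled in every case, and JAZ5 moves furthest across 0, to 0.75 without wt replicate 2.

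The rest of the pathway was read from 6 lists of known genes with 55 members, of which 54 were tested on summed counts. These lists too were chosen with earlier results of the data known, so shares over all loci only describe them. Of these LOX2 rose and 15 fell, where over all loci 4.3% were called higher and 4.55% lower. The median log2 fold change was -0.33, against 0.01 over all loci. In breakdown and storage of the hormone 6 of 9 tested genes fell (median -1.42), against 4.55% of loci called lower, and the remaining 3 also had negative values. The number of falls was 4 without wt replicate 2 and 8 without dcl1 replicate 1, and 5 with DESeq2. AT5G05600 (-1.58, SE 0.20) and AT2G38240 (-2.70, SE 0.28), annotated in RefSeq as oxygenases that need iron, and JRG21, annotated as a jasmonate-regulated gene (-3.39, SE 1.02), fell. IAR3 (-1.15, SE 0.18) and ILL6 (-1.06, SE 0.21), hydrolases of hormone conjugates, fell as well, as did ST2A, a sulfotransferase of hydroxyjasmonate (-2.79, SE 0.60). AT3G11180, the gene of that list not tested, was at 0 in every library. AT2G38240 went from 17.3 and 12.7 CPM in the wt RNA samples to 2.15 and 2.49 CPM in dcl1, and IAR3 from 47.1 and 63.2 to 28.1 and 21.4 CPM.

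Synthesis and conjugation had 1 rise and 4 falls among 14 tested genes (median -0.46), against 4.3% and 4.55% of loci called higher and lower. LOX2, the chloroplast lipoxygenase at the head of the pathway in wounded leaves, rose by 0.91 (SE 0.13, adjusted p = 0.000279), from 690 and 647 CPM in the wt RNA samples to 1316 and 1196 CPM in dcl1. AOC2, an allene oxide cyclase gene, was at 152 and 161 CPM in the wt and 223 and 200 CPM in the dcl1 RNA samples, a difference of 0.43 on the log2 scale that did not pass (SE 0.14, adjusted p = 0.0675). It was called higher with DESeq2 (adjusted p = 0.0197), with no filter (adjusted p = 0.0414) and with all 8 libraries in 1 model (adjusted p = 0.00734). That last model takes the HD and IL libraries of an RNA sample as independent, which they are not, so its p-values are too small. AOS, allene oxide synthase (-0.58, SE 0.14), OPR3, oxophytodienoate reductase (-0.60, SE 0.17), and JAR1, which joins jasmonate to isoleucine (-0.58, SE 0.15), fell. DAD1, a phospholipase known from anthers, was called lower on 10, 30, 12 and 71 counts in the wt libraries against 1, 0, 0 and 0 in dcl1. The rise of LOX2 held without any 1 RNA sample. The number of falls was 2 without wt replicate 2 or dcl1 replicate 1 and 1 without dcl1 replicate 2, but 6 without wt replicate 1, with the replicate block, with no filter and with all 8 libraries in 1 model, and 5 with DESeq2.

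The list of other targets of the MYC branch had 3 falls among 7 tested genes (median -0.75), against 4.55% of loci called lower. These were the NAC transcription factor genes NAC019 (-1.65, SE 0.41), NAC055 (-4.74, SE 0.77) and NAC072 (-1.14, SE 0.23). NAC055 had 84, 164, 45 and 66 counts in wt against 6, 1, 0 and 5 in dcl1. NAC019 lost its call without wt replicate 2 (-0.56, adjusted p = 0.574). In the ERF branch, which answers jasmonate together with ethylene, 2 of 7 genes fell (median -1.18), against 4.55% of loci called lower. They were the transcription factor gene ORA59 (-1.69, SE 0.41) and PR4, a hevein-like defence gene (-2.13, SE 0.22). The median is the value of PDF1.2, whose mean was 1.39 CPM in wt and 0.611 CPM in dcl1. ERF1, PDF1.2b, PDF1.2c and HCHIB were lower still, at no more than 0.678 CPM in any RNA sample. PR4 went from 48.2 and 39.6 CPM in the wt RNA samples to 7.45 and 12.6 CPM in dcl1.

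None of the 7 JAZ repressor genes outside the 10, and none of 10 genes for the receptor, co-repressors and bHLH relatives, was called by edgeR on summed counts (1 and 2 at an unadjusted p under 0.05, and 1 and 0 by DESeq2). JAZ7 came nearest, at 3.19 and 5.91 CPM in the wt and 8.19 and 10.6 CPM in the dcl1 RNA samples (log2 fold change 1.03, SE 0.32, adjusted p = 0.0513). DESeq2 called it (adjusted p = 0.0442), as did edgeR with no filter, with a replicate block or without wt replicate 2 (1.54) or dcl1 replicate 1 (1.21). Of all 13 JAZ genes 0 were higher and 2 lower. Over all loci 4.3% were called higher and 4.55% lower, so lists of 7 and 10 genes with no call do not stand out. NIG1, annotated as a calcium-binding transcription factor, had the smallest p of the other list (adjusted p = 0.140), with 0, 0, 2 and 0 counts in wt against 24, 21, 12 and 4 in dcl1. JAM1 was called in that list without wt replicate 2 (0.68, adjusted p = 0.0455).

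**Figure D5:**
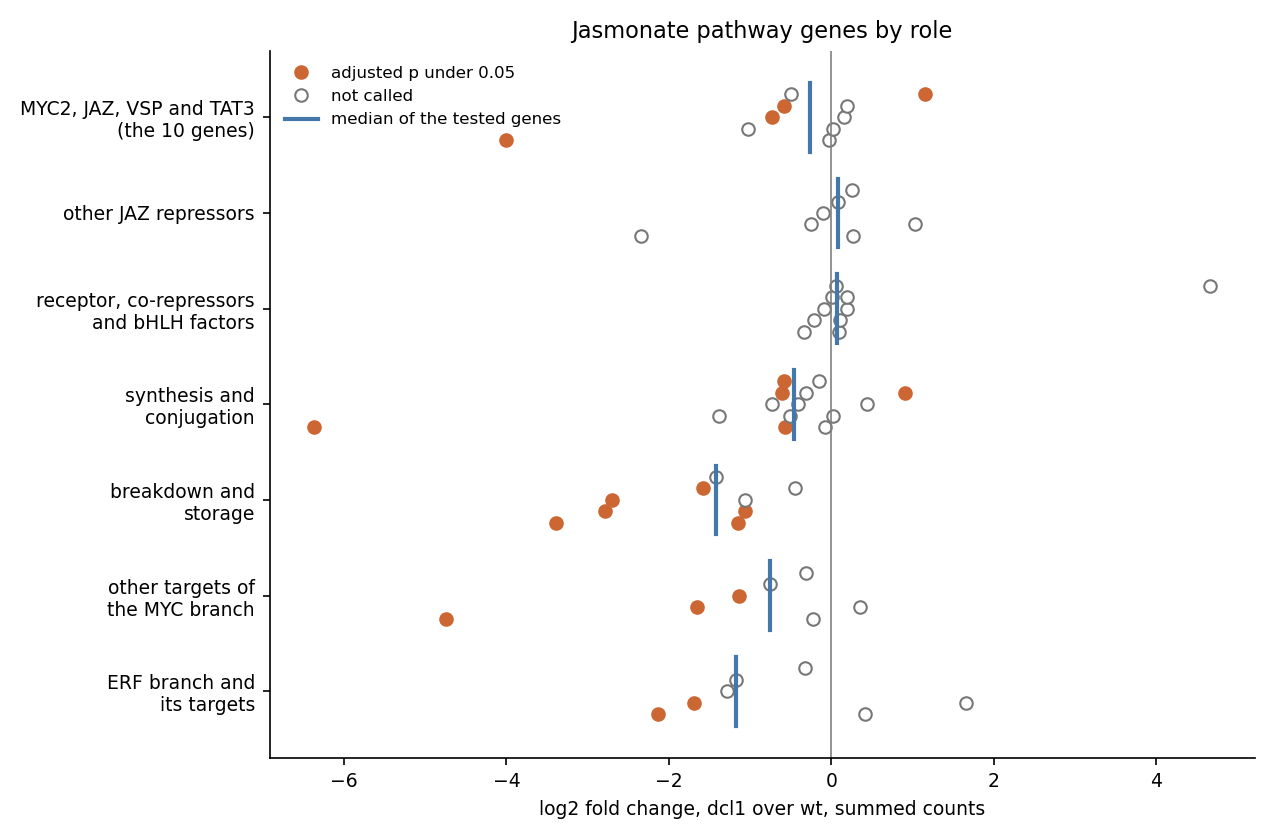
Log2 fold change, dcl1 over wt on summed counts, of the 10 genes (top row) and of the tested members of the 6 other lists, 1 point a gene. Filled points have an adjusted p under 0.05 and blue bars are medians of the tested genes. The point furthest left is DAD1, whose fitted value rests on 1 count in dcl1. The medians run from -1.42 for breakdown and storage to 0.08 for the other JAZ repressors.

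Of the 16 calls on summed counts in the 6 lists, 9 held without any 1 RNA sample: LOX2, AT5G05600, AT2G38240, IAR3, ILL6, NAC055, NAC072, ORA59 and PR4. AOS, OPR3, JAR1, DAD1, JRG21, ST2A and NAC019 each lost the call without at least 1, and JRG21 also with DESeq2 (adjusted p = 0.493) and without ribosomal RNA loci (adjusted p = 0.0517). Without wt replicate 2 these were OPR3 (-0.36), JRG21 (-2.24), ST2A (-2.53), NAC019 (-0.56) and DAD1. The call of JAR1 ended without wt replicate 1 (-0.54) or dcl1 replicate 2 (-0.51), and that of AOS without dcl1 replicate 1 (-0.55). OPR3 and DAD1 lost theirs without either dcl1 RNA sample too (OPR3 at -0.59 and -0.62).

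Within adapters 50 genes of the lists were tested. With HD adapters 2 rose, LOX2 (0.93) and the chlorophyllase gene CLH1 (0.84), and 7 fell, namely AOS, JAR1, AT5G05600, AT2G38240, IAR3, NAC055 and PR4. Over all loci 2.07% were called higher and 2.26% lower with these adapters. With IL adapters the difference of CLH1 on the log2 scale was -0.00027 (SE 0.23). AOS and NAC055 were not called once any of the 4 HD libraries was left out (-0.66 to -0.48 and -5.98 to -4.95). JAR1 lost its call without wt HD replicate 1 (-0.74) or 2 (-0.78) or dcl1 HD replicate 2 (-0.63), and CLH1 without wt HD replicate 1 (0.63) or dcl1 HD replicate 1 (0.94) or 2 (0.75). That of AT2G38240 ended without wt HD replicate 1 (-1.61) or dcl1 HD replicate 1 (-1.46), and that of IAR3 without wt HD replicate 2 (-0.76) or dcl1 HD replicate 2 (-0.73). With IL adapters LOX2 rose (0.90) and AOS, AT5G05600, AT2G38240, IAR3, NAC072 and PR4 fell, where over all loci 1.87% were called higher and 2.36% lower. There the call of AOS ended without wt IL replicate 1 (-0.60) or 2 (-0.66) or dcl1 IL replicate 1 (-0.55), and that of NAC072 without wt IL replicate 2 (-0.90) or dcl1 IL replicate 1 (-1.08). By edgeR's interaction test 0 of the 50 were called and 3 had an unadjusted p under 0.05. AT2G38240 (-1.85 with HD and -3.96 with IL adapters, unadjusted p = 0.00170), MYC3 (unadjusted p = 0.0201) and CLH1 (unadjusted p = 0.0165) were these 3.

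The loci whose levels ran most like those of the 10 genes were found by Pearson's r of log2(CPM + 1) over the 8 libraries, among 9014 or 9015 loci of at least 10 CPM. This is a description over libraries that share RNA samples, with no p. VSP1 ran with CYP706A6, a cytochrome P450 gene (r = 0.992), JAZ9 with BBD1, a nuclease gene (0.990), TAT3 with GSTZ1, a glutathione transferase gene (0.983), and JAZ2 with IAR3 (0.980). IAR3 belongs to the list of breakdown and storage genes above, and JAZ2 and IAR3 were both called lower on summed counts. Pearson's r over libraries of both genotypes takes in such shared shifts, for every pair given here. JAZ3 ran with LEJ1 (0.979), MYC2 with AT5G58300 (0.971), JAZ5 with AT1G61890 (0.959), JAZ1 with AT5G01950 (0.958), JAZ10 with MAPKKK5 (0.954) and VSP2 with AT4G32610 (0.933). CYP706A6 rose by 1.19 on summed counts (SE 0.18, adjusted p = 0.000412), and GSTZ1 fell by 0.93 (SE 0.22, adjusted p = 0.0109), less than TAT3. Among the 10 genes themselves r was 0.922 for JAZ2 with TAT3, 0.824 for JAZ9 with TAT3, -0.850 for VSP1 with TAT3 and 0.595 for VSP1 with VSP2.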

How the data were processed

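Leaf messenger RNA of 4 RNA samples was measured in 8 libraries. The deposited values are read counts for each locus (whole numbers, no header), made by the authors on the TAIR10 build, per the submitters' processing notes. Not given in the sources used here: aligner, counter, strand setting and handling of reads with several matches. Loci missing from a file were set to 0. Of 22546 loci 22444 were matched to the RefSeq TAIR10.1 annotation, from which positions and sequences come. The libraries held 15772958 to 45929383 counts, without molecular identifiers. Replicates of a group differed by more than sampling noise (chi-square per degree of freedom 26.6 to 50.5), so none was counted as a repeat of another.

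The tests used edgeR 4.0.16 with limma 3.58.1 under R 4.3.3: filterByExpr, TMM scaling, and the two-sided quasi-likelihood F test with Benjamini-Hochberg adjustment over all loci tested, with calls at an adjusted p under 0.05. The fit of 4 group means on all 8 libraries gave the contrasts within each adapter and their interaction, genotype and adapter as terms gave the adapter contrast, and the genotype contrast on summed counts used 4 sums of the HD and IL library of an RNA sample. Equal numbers were taken as the same RNA sample within a genotype, which the series design states for the pairs in general. The replicate differences of HD and IL libraries correlated across loci at 0.293 in wt and 0.117 in dcl1. SE is the size of the log2 fold change divided by the root of edgeR's F, and is approximate. The fits were tried on simulated data with independent libraries and a smaller spread than here. That checks how they run and not their error rates for these data.

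The 10 genes and the other lists were chosen with earlier results of these data known. The rule named all 10 genes, each list member called in a genotype contrast or with the smallest p of its list, and the locus most like each of the 10. Alternatives were a replicate block, RLE scaling, DESeq2 1.42.0, no filter, no ribosomal RNA loci, the libraries of 1 adapter alone, all 8 libraries in 1 model, leaving out each library or RNA sample, and joining VSP1 with VSP2. A group left with 1 sample was assumed to vary like the others. A planned search of protein sequences was not run here.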

Additional observations from a re-analysis of the deposited data

How the results depend on the processing

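The number of the 10 genes called was 2 with HD adapters, 4 with IL adapters and 4 on summed counts, and was the same with RLE scaling, DESeq2 and no ribosomal RNA loci. Leaving out 1 library or RNA sample gave 1 to 2, 1 to 4 and 2 to 6. With no filter it was 5 on summed counts. The replicate block gave 2, 4 and 5, adding JAZ10 (-0.95, adjusted p = 0.0463), and changed no other call of the 10. Replicate differences of wt and dcl1 correlated across loci at -0.025 to 0.018, so the numbers were not taken to pair the genotypes. No call of the interaction or of the adapter appeared in any setting.

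Of the single values for the 10 genes under other settings 353 kept their direction and side of the threshold, 17 lost and 4 gained the call, and 15 changed sign, all of genes not called, for which the cause was not tested. With HD adapters JAZ5 was -0.24 and VSP2 -0.031 without wt replicate 1, VSP2 -0.13 without dcl1 replicate 1, and MYC2 0.21 without dcl1 replicate 2. With IL adapters JAZ5 was 0.028 with the replicate block, 0.85 without wt replicate 2 and 0.084 without dcl1 replicate 2, and VSP2 was -0.23 without dcl1 replicate 1. On summed counts JAZ5 was 0.10 with the block, 0.00015 with all 8 libraries in 1 model, 0.75 without wt replicate 2 and 0.088 without dcl1 replicate 2. JAZ3 was -0.069 without wt replicate 2 and -0.086 without dcl1 replicate 1, and VSP2 -0.17 without dcl1 replicate 1. Over the libraries or RNA samples left out, JAZ5 ran up to 0.74 and VSP2 up to 0.58 with HD adapters, and MYC2 down to -0.60. With IL adapters JAZ5 ran down to -0.71 and VSP2 up to 0.49. On summed counts JAZ5 ran down to -0.52, and JAZ3 and VSP2 up to 0.12 and 0.48. The setting with MYC2 and AT1G32630 joined was chosen after seeing the data. With 2 RNA samples a genotype, and 3 to 142 counts of TAT3 in the dcl1 libraries, the size of its fall is known less well than its direction.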
